A study of Mus musculus with 24 samples.

Results

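Retnla encodes resistin-like alpha (also called FIZZ1 or RELMα), a small cysteine-rich protein that macrophages secrete. It was examined here on 15 hippocampal arrays together with its 3 family members, Retnlb, Retnlg and Retn, and with Arg1, Mrc1 and Cd163, which serve with it as labels of alternatively activated macrophages. Every non-control probe that the array design names for these 7 genes was taken, giving 8 probes of 55681, with 2 for Retn and 1 for each other gene. Retnla was chosen by its measured rise in the MS5 group over Con, so its values in MS5 are described without a test. The other 6 genes were added by family or function. All pups were C57BL/6 mice labelled male, and bilateral hippocampi were collected on P9. Control pups (Con, n = 5) were left untreated. From P5, pups of the MS2 group (n = 5) and the MS5 group (n = 5) received 2 or 5 mg/kg of morphine together with separation from the dam and brief anoxia followed by oxygen. Both treated groups therefore shared stress and apnea, which Con pups did not have, and no group received stress without morphine or morphine without stress. Each array held RNA of 1 animal.

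The resistin family comprises short secreted proteins. In mice, resistin itself is made mainly by fat cells and the resistin-like proteins by macrophages, airway and gut epithelium and other tissues. Interleukin-4 and interleukin-13 act through their receptor chains and the transcription factor STAT6 to induce alternative activation, a state in which macrophages make Retnla, arginase 1 and the mannose receptor. In the brain, cells of this kind lie mostly at the borders, in the meninges, around vessels and in the choroid plexus, whereas microglia occupy the tissue itself.

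Retnla and Retnlg are neighbours on chromosome 16 and have related probes, so the part where the probes resemble each other is printed here, with the 22 bases that align as identical in capitals. These 30-base stretches were read from the probe sequences of the array files, 5′ to 3′.
Retnla: GAaTcTAACAAAAaCtgCAgTCtCAAtTTG
Retnlg: aGAcTaTAACAAAAgCaCAaTCcCAAcTTG
The stretches are bases 4 to 33 of the Retnla probe and bases 25 to 54 of the Retnlg probe. The best local alignment of the full 60-base probes covered 36 bases, 28 of them identical, and their longest shared run was 8 bases. Against the Retnlb probe the Retnla probe aligned over 12 bases with 10 identical, and against either Retn probe over at most 10. The Retnla probe lies at chr16:48844447-48844506 on the plus strand (mm9), the Retnlb probe at chr16:48818874-48818933 and the Retnlg probe at chr16:48874468-48874527.

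The promoters of the same pair are shown because STAT6 is known to bind the spaced palindrome TTCNNNNGAA. In the RefSeq promoter windows (GRCm38.p6, from 250 bases before to 50 bases after the start), which held 5 of the 7 genes, this motif was found once in Retnla and once in Retnlg, printed here with 30 bases around it and the motif in capitals.
Retnla: aatcataaTTCACAAGAAattgctaaacag
Retnlg: tgtcataaTTCACAGGAAattgctataata
The Retnla window is chr16:48842456-48842485 and the motif began 145 bases before the start. The Retnlg window is chr16:48872528-48872557, 72 bases before the start, and both are on the plus strand. The palindrome is its own reverse complement, so both strands were searched at the same time, and 6.95% of 32851 promoters held it. These letters were not in the windows of Retn, Mrc1 and Cd163.

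Before any comparison, 3 arrays were seen to stand apart. MS5 replicate 9 had Xist at 11.34 and Ddx3y at 6.24 on the log2 scale, against at most 6.08 for Xist and at least 11.01 for Ddx3y on the other 14 arrays, the reverse of what its label male gives. MS2 replicate 4 had a mean of 10.36 for 9 hippocampal neuron markers, against 11.75 to 12.32 elsewhere. MS2 replicate 5 was dim, with a median spot signal of 51.0, against 100.4 to 128 on the other arrays. Scanner flags put 67.1 to 79.0% of the probes of an array well above background.

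Retnla was well above background on all 15 arrays and was highest in MS5. The Con arrays read 7.08, 6.81, 6.65, 6.44 and 7.04 (replicates 15 to 19), in log2 of the background-adjusted and quantile-normalised signal. The MS2 arrays read 7.31, 7.19, 6.62, 8.22 and 6.78 (replicates 1, 3, 4, 5 and 7). The MS5 arrays read 8.59, 7.47, 11.56, 7.26 and 11.69 (replicates 8, 9, 12, 13 and 14). All MS5 arrays lay above all Con arrays, but replicates 9 and 13 came close to the highest Con array, replicate 8 was intermediate, and replicates 12 and 14 lay far above. MS5 and MS2 overlapped, since MS2 replicate 5 exceeded MS5 replicates 9 and 13. In the scanner signal before normalisation, MS5 replicates 12 and 14 gave 3090 and 2935, MS5 replicate 8 gave 371, and the Con arrays gave 46.3 to 110.2. MS2 replicate 5 gave 98.5 before normalisation, inside the Con range, and its high normalised value came from the dimmest array. Its median spot signal was 51.0, against 100.4 to 127.6 in Con, so its signals before normalisation do not compare directly with those of Con.

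**Figure D1:**
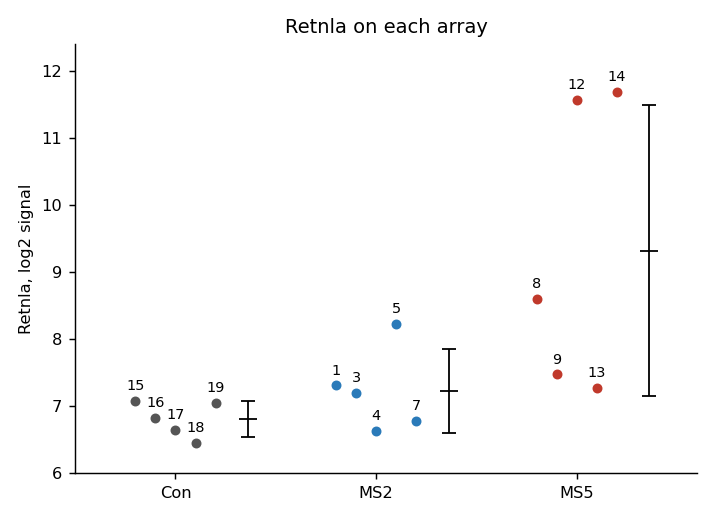
Retnla, log2 signal (vertical axis), on each of the 15 arrays by group (horizontal axis), with replicate numbers beside the points and the group mean ± SD as the bar to the right (n = 5 per group). MS5 replicates 12 and 14 sit at 11.56 and 11.69, apart from every other array, of which the highest is 8.59.

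The group means were 6.80 ± 0.27 in Con, 7.22 ± 0.62 in MS2 and 9.31 ± 2.17 in MS5 (SD, n = 5 each). MS5 minus Con was 2.51 in log2 (SE 0.75), or 5.70-fold, which placed Retnla at rank 2 of 55681 probes by signed difference. MS5 minus MS2 was 2.09 (SE 0.75), or 4.26-fold. The spread within MS5 was itself large and ranked 18 of all probes by SD. Without both MS5 replicates 12 and 14, MS5 minus Con was 0.97 and MS5 minus MS2 was 0.55. Without replicate 9, the array with high Xist, MS5 minus Con was 2.97. The paper also measured Retnla by quantitative PCR on the same samples and reports no significant relation to morphine dose. In bulk tissue, more cells that make a transcript and more transcript per cell cannot be told apart.

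The MS2 arrays had not been used to choose Retnla, so MS2 was compared with Con by test, although the Con arrays had been part of that choice. MS2 minus Con was 0.42 (SE 0.75, 95% interval -1.22 to 2.06), with an adjusted p of 0.979 in limma. This SE is shared with the MS5 arrays and their wide spread, and with only MS2 and Con in the fit it was 0.27, with an unadjusted limma p of 0.145 and an adjusted p of 0.983. The exact two-sided permutation test over 252 assignments gave p = 0.206. A difference between the MS2 and Con groups was not detected. Without MS2 replicate 5, the dim array, the difference was 0.17, and without MS2 replicate 4 it was 0.57.

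The arrays came from 2 slides, and both of the highest arrays were on slide 2. On slide 1 the mean was 6.72 in Con (n = 3) and 7.93 in MS5 (n = 2), a difference of 1.21. On slide 2 it was 6.93 in Con (n = 2) and 10.24 in MS5 (n = 3), a difference of 3.31. MS2 minus Con was 0.37 on slide 1 and 0.50 on slide 2. The MS2 arrays on slide 2 were replicates 4 and 5, both described above as standing apart, at 6.62 and 8.22. Only the dim replicate 5 lay above the Con mean of that slide. The direction of both differences was the same on each slide. For MS2 this rested on replicate 5 on slide 2. For MS5 it was fixed in advance, because all MS5 arrays lay above all Con arrays. The difference in MS5 was larger on the slide that held replicates 12 and 14.

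The neighbouring family members gave no such signal. Retnlb, a resistin-like protein of gut goblet cells, was not well above background on any array and ranged from 5.76 to 5.92. Retnlg, which is made in bone marrow and myeloid cells, was also not well above background on any array and ranged from 5.803 to 6.055. On MS5 replicates 12 and 14, where Retnla read highest, Retnlg read 5.890 and 5.902, inside its range on the Con arrays (5.87 to 5.99). The signal of Retnla therefore had no counterpart at the Retnlg probe with which it shares the stretch printed above. No fold is given for Retnlb or Retnlg, as neither was measured above background in any group.

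Retn, which encodes resistin, was well above background on all 15 arrays at both of its probes, chr8:3657312-3657371 and chr8:3659757-3659816 (plus strand, mm9). At the first probe, the Con arrays read 8.43, 8.30, 8.27, 8.53 and 8.81, the MS2 arrays 8.44, 8.44, 7.78, 8.83 and 8.60, and the MS5 arrays 9.15, 8.61, 8.57, 8.43 and 8.89, in replicate order. The 3 groups overlapped, with MS5 replicate 8 highest and MS2 replicate 4 lowest. MS5 minus Con was 0.26 at the first probe (95% interval -0.13 to 0.65, exact permutation p = 0.151) and 0.29 at the second (-0.13 to 0.72, exact permutation p = 0.135). MS2 minus Con was -0.05 and 0.02 (exact permutation p = 0.849 and 0.944). The probes moved together from array to array (r = 0.96 over 15 arrays), and both read the same RNA extracts. Neither probe passed the threshold, which asks for a change of over 1.5-fold and an unadjusted limma p under 0.05.

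Arg1 encodes arginase 1, which turns arginine into ornithine and is the textbook enzyme of alternative activation in mice. Its probe (chr10:24636194-24636253, minus strand, mm9) was dim, and was well above background on 14 of 15 arrays. The Con arrays read 6.15, 5.99, 6.17, 6.25 and 6.25, the MS2 arrays 6.36, 6.07, 6.43, 6.81 and 6.23, and the MS5 arrays 6.45, 6.20, 6.63, 6.23 and 6.92, in replicate order. The 2 highest MS5 arrays were again replicates 14 and 12, but the groups overlapped. MS5 minus Con was 0.33 (SE 0.14, 95% interval 0.02 to 0.64), or 1.25-fold, with an unadjusted limma p of 0.0367, an adjusted p of 1.00 and an exact permutation p of 0.0476. It stayed under the fold threshold. With a background offset of 0 in place of 50 the difference was 0.84, and with the scanner's processed signal it was 1.14, both past the threshold. It was 0.13 (unadjusted limma p of 0.334) without MS5 replicates 12 and 14 and 0.22 (0.113) without replicate 14 alone. The unadjusted limma p was 0.0510 with slide as a block and was also above 0.05 without MS5 replicate 12 (0.0798) or Con replicates 15 (0.0584), 16 (0.0846) or 17 (0.0549). MS2 minus Con was 0.22 (exact permutation p = 0.119), and 0.11 without MS2 replicate 5. MS5 minus Con was 0.15 within slide 1 and 0.47 within slide 2.

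Mrc1 encodes the mannose receptor CD206, a lectin that border macrophages carry at rest as well as after activation. Its probe (chr2:14253273-14253332, plus strand, mm9) was well above background on every array. The Con arrays read 10.18, 10.37, 10.20, 10.19 and 9.79, the MS2 arrays 10.37, 9.97, 9.55, 9.98 and 10.17, and the MS5 arrays 9.71, 10.24, 10.20, 10.14 and 9.88, in replicate order. The groups overlapped throughout, and MS5 replicates 12 and 14 lay within the Con range. MS5 minus Con was -0.11 (95% interval -0.43 to 0.21, exact permutation p = 0.429) and MS2 minus Con was -0.14 (95% interval -0.46 to 0.18, exact permutation p = 0.365). No change was detected, and the intervals leave room for changes of up to 0.46 in log2.

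Cd163 encodes the scavenger receptor for haemoglobin bound to haptoglobin. Its probe (chr6:124270436-124270495, plus strand, mm9) was well above background on only 5 of 15 arrays, 1 in Con, 1 in MS2 and 3 in MS5. It ranged from 5.94 to 6.21 in Con, from 5.94 to 6.21 in MS2 and from 6.10 to 6.25 in MS5. The MS5 mean of 6.17 exceeded the Con mean of 6.03 (exact permutation p = 0.0397, adjusted p = 1.00 in limma), but most of these values were not well above background and no fold is given. MS5 replicates 12 and 14 read 6.19 and 6.10 and did not stand out.

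**Figure D2:**
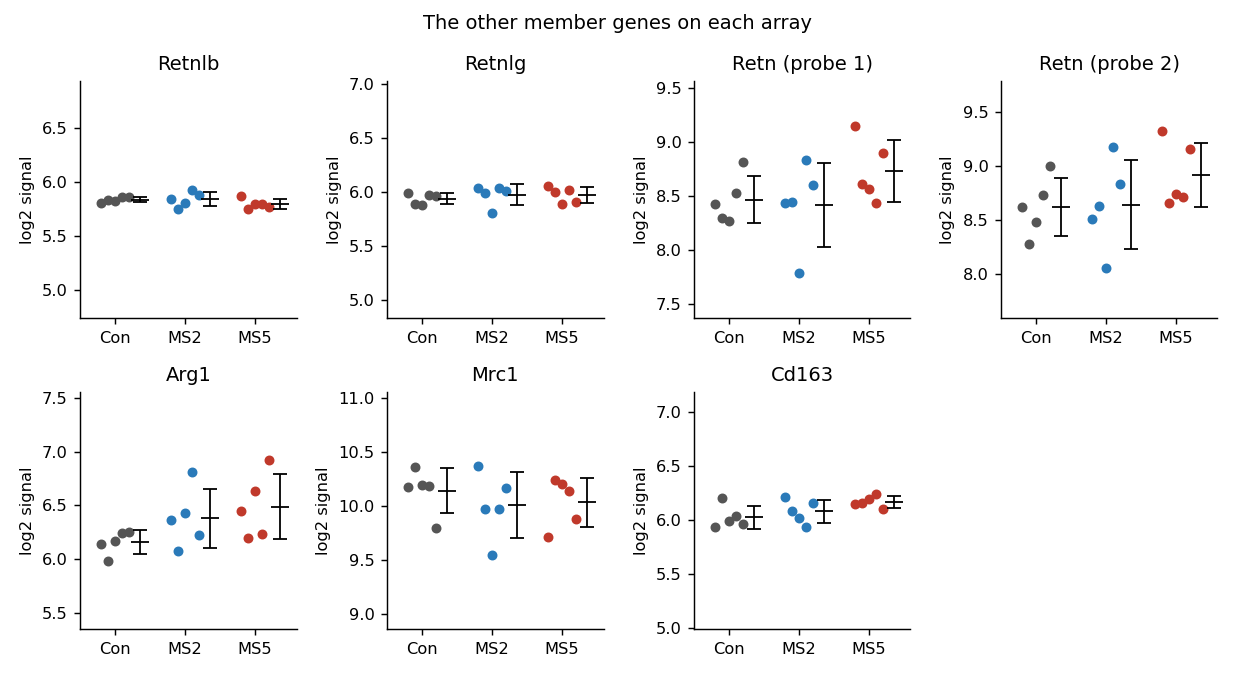
Log2 signal (vertical axes, each panel spanning 2.2 log2 units) of the other 6 genes by group, with 1 point per array and the mean ± SD as the bar to the right (n = 5 per group). The groups overlap in every panel, and Retnlb and Retnlg stay between 5.76 and 6.05.

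Counted over the 8 member probes, 1 passed the threshold in MS5 versus Con, and this was Retnla, for which the contrast had been used in the choice. Over all probes 127 passed (0.228%), 25 up and 102 down. None of the 8 passed in MS2 versus Con, where 13 of all probes did (0.0233%), and 1, again Retnla, passed in MS5 versus MS2, where 72 did (0.129%). That call also uses the MS5 values by which Retnla was chosen and is no test of it. MS5 arrays lay entirely above Con arrays at 172 probes (0.309%), Retnla among them and no other member, and entirely below at 289 (0.519%), with no member. No probe had an adjusted p under 0.05 in limma in any contrast, whereas 2324, 2173 and 2211 probes had an unadjusted p under 0.05 in MS2 versus Con, MS5 versus Con and MS5 versus MS2. The split between up and down depended on the scaling: in MS5 versus Con it was 132 up of 401 with an offset of 0 and 294 up of 623 with the processed signal. In MS2 versus Con it was 9 up of 13, against 128 of 230 and 359 of 522, and in MS5 versus MS2 it was 10 up of 72, against 101 of 370 and 173 of 592. It also turned between slides: in MS5 versus Con 333 of 391 were up within slide 1 and 10 of 191 within slide 2, and in MS5 versus MS2 324 of 393 and 188 of 313.

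The genes whose levels most resembled Retnla across arrays were looked for among the 40093 probes, members aside, that were well above background on all arrays of at least 1 group. The closest was Ear11, which encodes a ribonuclease of the eosinophil-associated family (r = 0.98 over 15 arrays, 0.98 after group means were subtracted). The next was Ccl8, a chemokine that attracts leukocytes (r = 0.95, and 0.94 within groups). Ear11 read 8.11 and 8.15 on MS5 replicates 12 and 14, 7.13 on MS5 replicate 8 and 7.12 on MS2 replicate 5, against 6.63 to 6.84 in Con. These are the same 4 arrays on which Retnla read highest. MS2 replicate 5 is the dim array, however. Its Retnla signal before normalisation lay inside the Con range, but that range comes from brighter arrays. Ccl8 read 8.27 and 8.64 on MS5 replicates 12 and 14 and 7.29 on MS5 replicate 8, against 6.37 to 6.86 in Con, whereas MS2 replicate 5 lay inside the Con range at 6.64.

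Without MS5 replicates 12 and 14, r with Retnla was 0.82 for Ear11 and 0.63 for Ccl8 over 13 arrays. The dim MS2 replicate 5 was among these, second only to MS5 replicate 8 for both Retnla and Ear11. The other 8 of the 10 closest probes had r between 0.83 and 0.91. Ear10, of the same ribonuclease family, had r = 0.88 with all arrays and 0.19 without MS5 replicates 12 and 14. The Ear10 and Ear11 probes shared no run longer than 7 bases. Cd74, the invariant chain of class II antigen presentation, had r = 0.86 and read 8.84 on both MS5 replicates 12 and 14, against 7.90 to 8.16 in Con. Skor1, a transcriptional corepressor of neurons, appeared with both of its probes (r = 0.87 each), and Celf4, a neuronal RNA-binding protein, with r = 0.83. The remaining 3 were intergenic transcript probes. These correlations describe arrays that share slides and dissections, and they rest largely on 2 arrays.

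Over all 15 arrays, r with Retnla was 0.77 for Arg1, 0.47 and 0.49 for the Retn probes, 0.22 for Cd163, -0.12 for Mrc1, -0.12 for Retnlg and -0.26 for Retnlb. Without MS5 replicates 12 and 14, r was 0.59 for Arg1, 0.73 and 0.72 for the Retn probes, 0.086 for Cd163, -0.26 for Mrc1, 0.66 for Retnlg and 0.26 for Retnlb. The order of the members thus depended on those 2 arrays, and the sign turned for Retnlg and Retnlb, both not well above background. The arrays left still held the dim MS2 replicate 5. It read 8.83 and 9.18 at the Retn probes, from signals of 151.7 and 189.2 before normalisation, the lowest of all arrays.

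**Figure D3:**
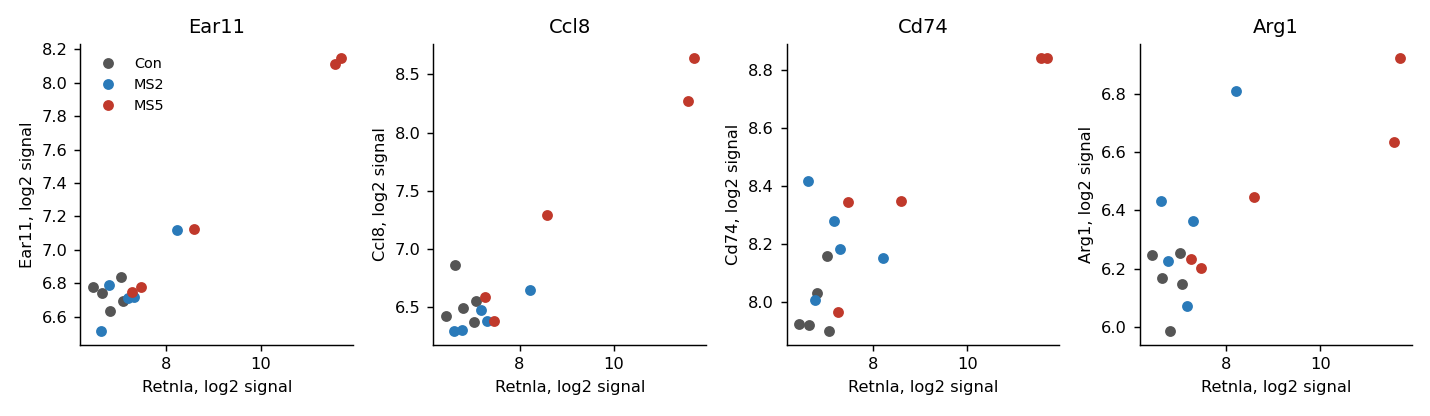
Log2 signal of Ear11, Ccl8, Cd74 and Arg1 (vertical axes, different ranges) against Retnla (horizontal axes) on the 15 arrays, coloured by group. In each panel MS5 replicates 12 and 14 lie at the right, and Ear11 and Ccl8 also have MS5 replicate 8 between them and the rest.

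The pathway that induces Retnla was followed through 22 genes of interleukin-4 and interleukin-13 signalling and alternative activation, each at its brightest probe. None passed the threshold in either treated group, at these probes or at any of the 27 probes of the list. Over all probes 0.228% passed in MS5 versus Con and 0.0233% in MS2 versus Con. At these shares a list of this size would be expected to hold none. In MS5 the means of 9 were higher and of 13 lower than in Con, with a median difference of -0.01, beside 0.00036 over all probes. Of the ligands, Il13 was never well above background, and Il4 read 6.17 in MS5 and 6.13 in Con, well above background on 4 of 5 and 2 of 5 arrays. The receptor chain Il4ra differed by 0.02 and the transcription factor Stat6 by -0.04. The 2 brightest probes were those of Mgl2, a macrophage lectin, at -0.01, and Tgm2, a transglutaminase, at -0.09. In MS2 the means of 7 were higher and of 15 lower (median -0.03).

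Some of these genes were singled out after their values were seen. Chil3, which encodes the chitinase-like protein Ym1 that is often reported beside Retnla, read 6.53 in MS5 and 6.64 in Con. Ccl24, an eosinophil-attracting chemokine, differed by 0.46 in MS5 (exact permutation p = 0.0397), and by 0.23 without MS5 replicate 9, which read 8.63 against 7.24 to 7.69 on the other MS5 arrays. Clec7a, the beta-glucan receptor dectin-1, differed by -0.49 (exact permutation p = 0.0476), and by -0.29 without Con replicate 19, which read 8.60 against 7.22 to 7.82 on the other Con arrays. Cd36, a fatty acid and scavenger receptor, was the only 1 of the 22 whose MS5 arrays did not overlap Con, beside 0.519% of all probes that lay entirely below it, and differed by -0.16 (exact permutation p = 0.00794, the smallest that 5 against 5 allows). On MS5 replicates 12 and 14, the lectin gene Clec10a read 8.78 and 8.68, against 7.40 to 8.34 in Con. Mgl2 read 14.85 and 14.83 there, against 14.62 to 14.76 in Con. Both genes had their highest values of all arrays there, whereas Chil3, Ccl24 and Clec7a did not and Cd36 had its lowest. None of the 22 had an adjusted p under 0.05, the smallest in limma being 1.00 in MS5 versus Con.

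The opposite state and the proteins that resistin family members bind gave no calls either, beside 0.228% of all probes in MS5 versus Con. Of 14 classical activation genes none passed, with 10 higher and 4 lower in MS5 (median 0.02), and the brightest, Cd80 and Nos2, differed by 0.09 and 0.06. Of these 14, 9 were well above background on all arrays of at least 1 group. Of 7 genes for proteins that bind resistin family members or act with them none passed, with 3 higher and 4 lower (median -0.03). Dcn, for decorin, differed by -0.50 (exact permutation p = 0.317) and Cap1, for a resistin receptor, by 0.02.

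**Figure D4:**
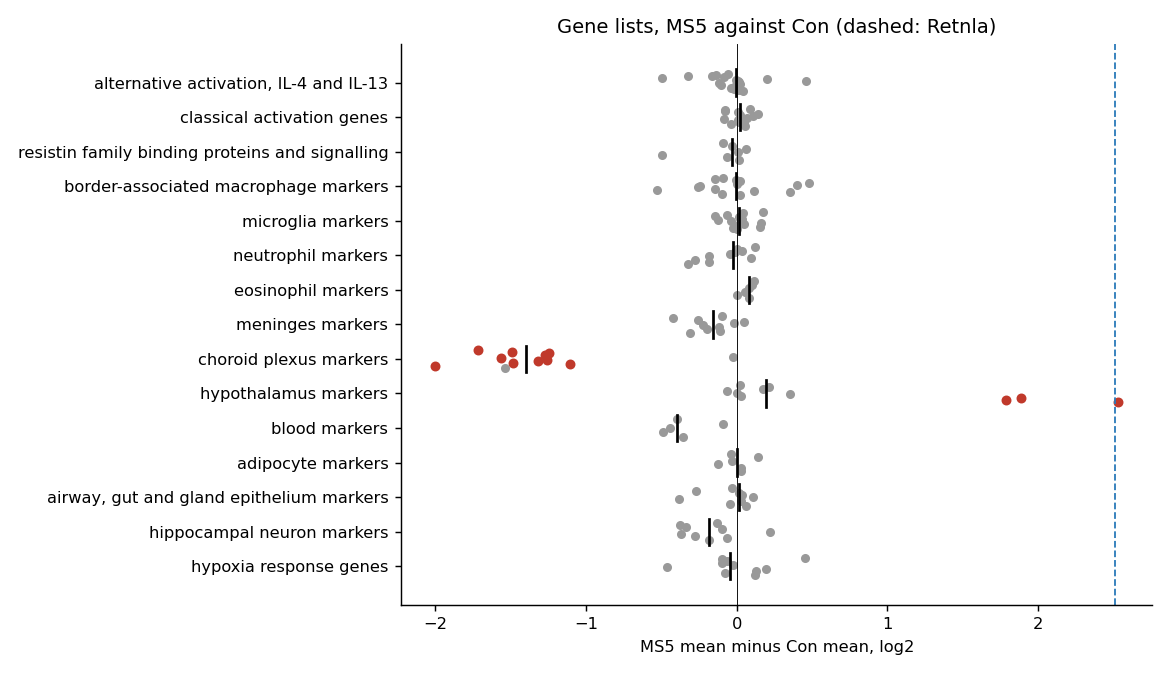
MS5 mean minus Con mean in log2 (horizontal axis) for each gene of 15 lists at its brightest probe, with the median of the list as a black bar, probes past the threshold in red and the value of Retnla (2.51) as a dashed line. Only choroid plexus markers (10 of 12, lower) and hypothalamus markers (3 of 10, higher) hold probes past the threshold.

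Marker lists of the cells that could carry Retnla were examined in the same way, and none of their genes passed the threshold in MS5 or MS2. At the shares over all probes (0.228% and 0.0233%), lists this short would be expected to hold none. Border-associated macrophage markers (15 genes) had a median of -0.01 in MS5, and their mean level per array was 9.20 to 9.59 in Con and 9.26 to 9.60 in MS5. The brightest, Mgl2 and Pf4, differed by -0.01 and -0.10, and Cd74, also on this list, by 0.48 (exact permutation p = 0.0238, under the fold threshold). Whether the very bright probes of Mgl2, Siglech, Itgam and Csf3r read only these genes was not checked, so these values describe the probes. Microglia markers (14 genes) had a median of 0.01, with mean levels of 11.85 to 12.20 in Con and 11.80 to 12.14 in MS5, and Siglech and Itgam differed by 0.03 and 0.16. Neutrophil markers (10 genes on the array) had a median of -0.03, and Csf3r and Elane differed by 0.12 and 0.10. Of these 10, 7 were well above background on all arrays of at least 1 group. All 6 eosinophil markers had higher means in MS5, by 0.08 at the median. Their mean level was 7.61, 7.67 and 7.59 on MS5 replicates 12, 14 and 8, the arrays with the most Retnla. It was 7.53 and 7.502 on replicates 13 and 9, and 7.43 to 7.55 in Con, so the groups overlapped. MS2 replicate 4, with Retnla inside the Con range, read 7.62. The eosinophil markers had a median r with Retnla of 0.46 (from -0.12 to 0.65). Of the defining eosinophil granule genes, Prg2 was never well above background and Epx differed by 0.08. Their part in the Retnla signal was not tested.

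Retnla is also made in fat and in airway, gut and gland epithelium. Adipocyte markers (6 genes) and epithelium markers (9 genes) had medians of 0.00038 and 0.02. Only 2 of the 6 and 7 of the 9 were well above background on all arrays of at least 1 group. The adipocyte median thus comes mostly from dim probes, whose differences the offset compresses. No probe was past the threshold, which 0.228% of all probes passed in MS5 versus Con. Meninges markers (10 genes) had lower means for 9 genes, with a median of -0.16, and blood markers (5 genes) for all 5, with a median of -0.40, again with none past the threshold. Hypoxia response genes (10 genes) had a median of -0.04.

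Markers of tissue next to the hippocampus held probes past the threshold in MS5 versus Con. All 12 choroid plexus markers were lower in MS5, 10 of them past the threshold (median -1.40), which 0.228% of all probes passed. The paper reports Aqp1, Calml4, Cldn2, Folr1, Slc4a5, Kl, Clic6 and Otx2 of this list as decreased on the same arrays. The count is therefore no independent test. The mean level of the 12 markers was 8.69 on replicate 14, 9.69 on replicate 9 and 11.13 on replicate 13. It was 11.64 on replicate 8 and 11.85 on replicate 12, against 11.42 to 12.37 in Con. MS5 replicates 12 and 14, alike in Retnla, were thus the highest and the lowest MS5 arrays for these markers. Of 10 hypothalamus markers 9 were higher in MS5 and 3 passed the threshold, Avp by 2.53, Trh by 1.89 and Oxt by 1.79. The paper reports Avp and Trh as raised in MS5 on the same arrays, so this count is no independent test either. In MS2 all 10 were higher than in Con, with none past the threshold. The median difference was 0.21 in MS2 and 0.20 in MS5. The mean level of the hypothalamus markers was 8.98, 9.14 and 9.11 on MS5 replicates 12, 14 and 8, the arrays with the most Retnla, 7.97 and 7.74 on replicates 13 and 9, and 7.41 to 8.16 in Con. The choroid plexus count fell to 4 of 12 without MS5 replicate 9 and to 5 without MS5 replicate 14 or Con replicate 16. The hypothalamus count was 0 of 10 without MS5 replicate 14 or without MS5 replicate 8, 1 without Con replicate 18, 2 without any of MS5 replicates 12 and 13 and Con replicates 15, 16 and 17, and 3 without MS5 replicate 9 or Con replicate 19. MS2 replicate 4, with the highest level of these markers (10.33), had Retnla at 6.62, inside the Con range. Hippocampal neuron markers had means of 11.75 to 12.16 on the MS5 arrays, against 11.88 to 12.25 in Con. Of these 9 markers 8 were lower than in Con in MS5 (median -0.19) and 8 in MS2 (median -0.30), with none past the threshold. The part of these 3 marker lists in the Retnla difference was not tested.

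**Figure D5:**
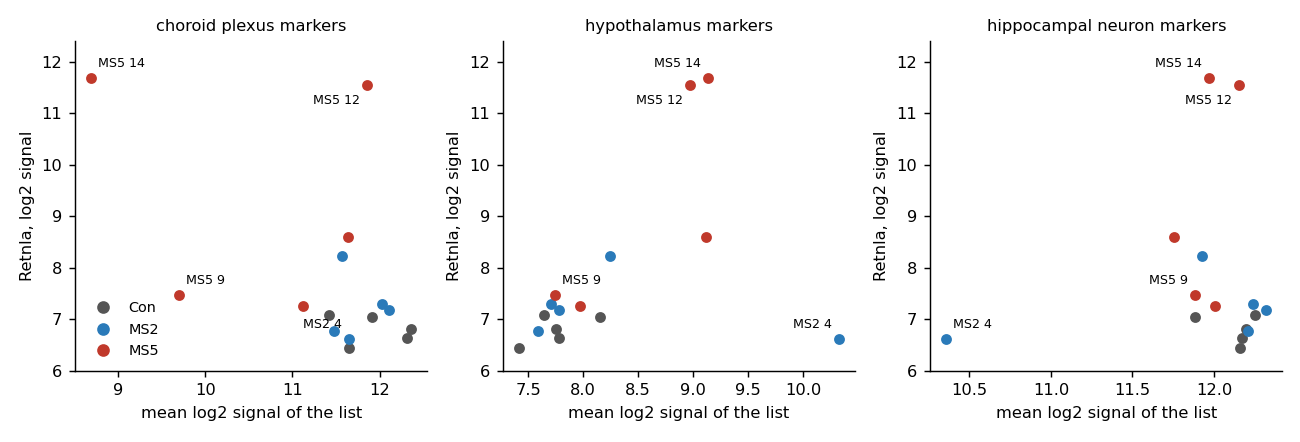
Retnla, log2 signal (vertical axes), against the mean log2 signal of 12 choroid plexus, 8 hypothalamus and 9 hippocampal neuron markers (horizontal axes) on the 15 arrays, coloured by group. MS5 replicates 12 and 14 lie far apart for choroid plexus and close together for hypothalamus, and MS2 replicate 4 has the highest hypothalamus value with Retnla at 6.62.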

How the data were processed

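Hippocampal mRNA of 15 pups was measured on 1-colour Agilent arrays. The deposited scanner files hold the unnormalized intensity of each spot (Agilent Feature Extraction 10.7.1.1, per the file headers). The log2 values of the series table, for which the authors had applied normexp background adjustment and quantile normalization, were used here. Repeating those steps (offset 50, 62976 spots) matched them with a largest difference of 5.0e-09. The 9 miR arrays were not used. Groups were compared with limma 3.58.1 (lmFit and eBayes, R 4.3.3) in 1 fit of 3 groups over 55681 non-control probes, and a probe was called when it changed by over 1.5-fold at an unadjusted p under 0.05. The Benjamini-Hochberg adjustment ran over all probes. Single probes were compared by exact two-sided permutation (252 assignments, smallest p 0.00794). The fit was tested on simulated data. The number of arrays limits the precision, and the offset compresses differences of dim probes. Well above background is the scanner's own flag.

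The members, gene lists and tests were chosen with earlier results of these data known. The text names all members, the probes past the threshold or the 2 brightest of each list without any (blood, meninges, adipocyte, epithelium, hypoxia and hippocampal neuron lists as totals only), and the 10 probes most like Retnla. Probe names and positions come from the array files (mm9), and the array calls Chil3 Chi3l3. Brightest probes can overstate a gene's level, as probes were not checked for other targets. Sequence tables of RefSeq were matched by symbol. Alternatives were spot averaging, other background and scaling, array weights, slide, a detection filter, only the 2 groups compared, and leaving out arrays.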

Additional observations from a re-analysis of the deposited data

Results flagged for a closer look

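Among 72 sets of 5 arrays examined (the members, the 10 probes most like Retnla and 6 list means, in each group), 5 had an array far from the other 4 of its group, where chance alone flags about 1 in 20. Retnlg on MS2 replicate 4 read 5.803, below the 5.99 to 6.04 of the other MS2 arrays, and none of these values was well above background. An intergenic transcript probe among the 10 most like Retnla read 6.18 on Con replicate 18, below 6.39 to 6.43 on the other Con arrays. The mean of the hypothalamus markers on MS2 replicate 4 was 10.33, above 7.59 to 8.24 in the rest of the group. The mean of the hippocampal neuron markers on the same array was 10.36, below 11.93 to 12.32. On Con replicate 19 the mean of the hippocampal neuron markers was 11.88, below 12.16 to 12.25. Retnla itself had no such array in MS5, since both replicates 12 and 14 were high.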

How the results depend on the processing

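Retnla kept its direction in every contrast under all alternatives run. In MS2 versus Con within slide 2, this rested on the dim MS2 replicate 5. In MS5 versus Con, leaving out arrays or splitting by slide could not have reversed it, because all MS5 arrays lay above all Con arrays. Its MS5 minus Con difference ranged from 1.92 (without MS5 replicate 14) to 3.02 when single arrays were left out and from 1.21 to 3.34 under the planned settings, with 3.14 at offset 0, 3.34 with the processed signal and 2.32 with slide as a block. Without both MS5 replicates 12 and 14, an alternative added after seeing the data, it was 0.97, and MS5 minus MS2 was 0.55. Member probes past the threshold in MS5 versus Con numbered 2 at offset 0 (Retnla and Arg1) and 3 with the processed signal (Retnla, Arg1 and Cd163). In MS5 versus MS2 they numbered 0 within slide 2 and 0 without replicates 12 and 14.

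Over all probes, the count past the threshold in MS2 versus Con was 230 at offset 0, 522 with the processed signal and 293 within slide 2. In MS5 versus Con it was 401, 623, 204 with array weights, 391 within slide 1 and 191 within slide 2. In MS5 versus MS2 it was 370, 592, 159, 393 and 313 under the same 5 settings and 38 with only the 2 groups compared. Leaving out single arrays gave 7 (Con replicate 18) to 38 (MS2 replicate 5) in MS2 versus Con, 61 (MS5 replicate 14) to 213 (MS5 replicate 12) in MS5 versus Con and 15 (MS5 replicate 14) to 106 (MS5 replicate 12) in MS5 versus MS2. In MS2 versus Con, counts moved by over 1.5 times also without Con replicates 15 (24) and 19 (8) and MS2 replicates 1 (24), 3 (34) and 7 (25). The same held without Con replicate 16 (84) in MS5 versus Con and without MS2 replicates 1 (39) and 3 (33) and MS5 replicate 9 (39) in MS5 versus MS2.

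Small differences changed sign. Arg1 in MS5 versus MS2 was -0.034 within slide 2, -0.088 without MS5 replicates 12 and 14, and -0.0027 to 0.21 without single arrays. Mrc1 was 0.030 within slide 2 in MS5 versus Con, and in MS5 versus MS2 it was -0.12 with array weights, -0.25 within slide 1 and -0.087 to 0.12 without single arrays. In MS2 versus Con, the first Retn probe was 0.032 with array weights, 0.085 within slide 1 and -0.15 to 0.11 without single arrays, and the second was -0.022 within slide 2 and -0.12 to 0.17 without single arrays. The cause was not tested. The paper states that treated pups returned to a cage shared with untreated littermates, but the sample labels used here give no litter. No paired analysis was therefore possible, and litter was not in the fit. Signal over background limits Retnlb, Retnlg, Cd163 and Arg1, and slides of 8 and 7 arrays leave 2 or 3 per group.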

Other observations

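Within 500 kb of the Retnla probe on chromosome 16, the array design holds 11 probes of 11 genes, Retnla included, and 4 of them were well above background on all arrays of at least 1 group. Leaving Retnla aside, which was chosen by its MS5 values, none of the other 10 passed the threshold in MS5 versus Con, where 0.228% of all probes did, or in MS2 versus Con. Dzip3, a ubiquitin ligase, read 7.76 ± 0.08 in MS5 and 7.71 ± 0.22 in Con (SD, n = 5 each), and Trat1, an adaptor of the T-cell receptor complex, read 6.45 ± 0.05 and 6.39 ± 0.11. Over the 22 genes of interleukin-4 and interleukin-13 signalling and alternative activation, r with Retnla across arrays had a median of -0.18 for the 16 probes well above background in a group, beside -0.01 over 40093 probes, and ran from -0.73 for Cd36 to 0.60 for Mgl2.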
